A study of Homo sapiens with 24 samples.

Results

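The baseline described here is that of HB2 cells that received a control siRNA. It rests on 6 of the 24 arrays of the study, chosen because their titles name the control siRNA and experiments 1, 3, 5, 7, 9 and 11. HB2 is an established human mammary epithelial cell line, grown here in a serum-containing medium with insulin and hydrocortisone, and total RNA was taken 48 h after transfection of 50 nM siRNA with the lipid reagent DharmaFECT 3. The other 18 arrays came from cells given an siRNA to GNG12-AS1, which is a long non-coding RNA. They fall into 6 arrays each for siRNAs against its exon 1, its exon 7 and its exon 9, in the same 6 experiments. They serve below only as separate arrays of the same experiments, with the mean of each siRNA taken out, and no siRNA is compared with another. The labels call the 6 arrays of a group biological replicates, and do not say which steps, such as the culture day, the extraction or the chip, arrays of 1 experiment shared. All cells came from 1 line and all were transfected, so the values describe transfected cells, and no array of untransfected cells was used here.

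HB2 was derived from epithelial cells of human milk that were immortalised with a viral large T antigen, and it is used as a non-tumorigenic model of the luminal mammary epithelium. The mammary gland has an inner layer of luminal cells, which carry simple keratins such as keratins 8, 18 and 19, and an outer layer of basal or myoepithelial cells, which carry keratins 5 and 14 and contract. Cell lines from it often mix features of both layers and take on some features of mesenchymal cells in culture. Epithelial cells also carry sensors of foreign RNA. When these or an interferon receptor are engaged, a shared set of antiviral genes is transcribed through a short DNA element, the interferon-stimulated response element.

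A level below is a log2 intensity after background correction and quantile normalisation of the 6 control arrays among themselves. A probe counted as above background on an array when fewer than 0.05 of the 437 probes for olfactory receptor genes on that array, genes that epithelial cells are not known to use, were as bright. The median of those probes was 5.61 after normalisation, so levels near 5.6 carry no signal. Before normalisation the 6 arrays had medians from 7.477 to 7.745 and between 36.8% and 38.9% of their probes above background. Pearson's r between 2 control arrays ran from 0.981 to 0.990 over the genes tested. Probes differ in how they bind, so levels are compared between arrays for 1 gene and not between genes. A gene not above background was not detected by its probes, which does not show that it is silent: RPL10, a ribosomal protein gene that every cell uses, was among these at 5.83 ± 0.05 (SD, n = 6).

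Of 19580 genes with a named probe, 8941 (45.7%) had a probe above background on all 6 control arrays. A further 3440 were above it on some of them, and 7199 on none. For 10331 genes at least 1 probe was above background on 3 or more of the 6 arrays, and these are called the genes tested below. The brightest such probe stood for the gene, and for the remaining genes the brightest of all probes. Their median level was 8.96.

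The cells carried an epithelial keratin set in which simple keratins and KRT5 were present on every array and KRT14 was not. KRT18 and KRT8 encode the paired keratins of simple epithelia. KRT18 ran from 10.05 to 10.25 with a median of 10.19 (7.11 as the mean of its second probe), and KRT8 from 13.24 to 13.52 with a median of 13.40. KRT19, a luminal keratin, ran from 14.03 to 14.54 with a median of 14.37. All 3 were well clear of background on each array, and the ranges spanned little of the scale. KRT5, the basal keratin, ran from 10.91 to 11.30 with a median of 10.98. KRT7 lay at 12.11 ± 0.08 (SD, n = 6) and KRT80 at 12.82 ± 0.37. Of the basal keratins, KRT15 (6.76 ± 0.21), KRT16 (7.61 ± 0.24) and KRT6C (7.67 ± 0.29) were also above background on all 6 arrays, although KRT6C and KRT16 have near-identical relatives whose RNA their probes may also bind. KRT14, the usual partner of KRT5, was at 5.23 ± 0.09 and above background on no array, as were KRT20 and KRT23. In all, 4 of 5 basal and 5 of 7 simple or luminal keratins with a probe were above background on all 6 arrays, against 45.7% of all genes.

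**Figure D1:**
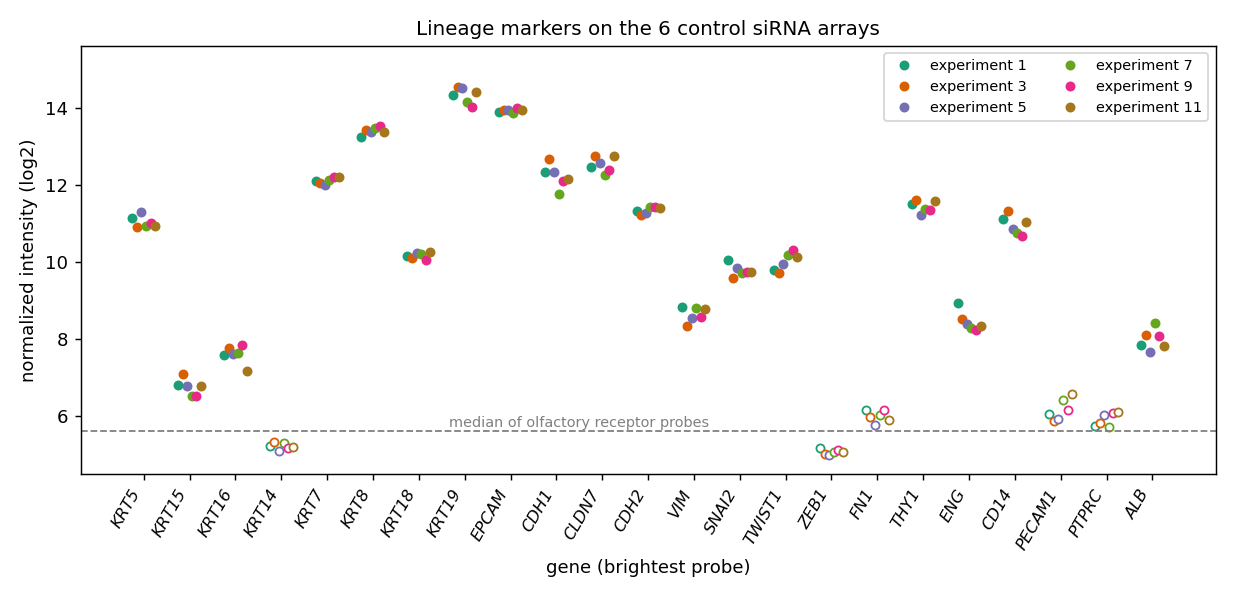
Normalised intensity (log2) of lineage markers on the 6 control siRNA arrays, 1 point per array coloured by experiment. Filled points mark genes above background on all 6 arrays, open points mark the others, and the dashed line is the median of the olfactory receptor probes (5.61). KRT5, KRT18, CDH1 and VIM lie above the line on each array, while KRT14, ZEB1 and FN1 lie near it.

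Junction genes of epithelial cells were present on every array, beside some genes of mesenchymal cells. CDH1, which encodes E-cadherin, ran from 11.75 in experiment 7 to 12.67 in experiment 3 with a median of 12.23. EPCAM, the epithelial cell adhesion molecule, lay between 13.86 and 13.99. Of 28 adhesion and epithelial identity genes with a probe, 22 were above background on all 6 arrays, including CLDN1 (10.99 ± 0.15) and CLDN7 (12.53 ± 0.20), both tight junction claudins, TJP1 (10.93 ± 0.08), a scaffold of the tight junction, and RAB25 (12.28 ± 0.09), an epithelial GTPase. The 3 genes on no array were OCLN, which encodes occludin, the splicing regulator ESRP2 and the transcription factor EHF. CLDN4 (6.73 ± 0.47), MARVELD2 and OVOL1 were above background on some arrays. VIM, the intermediate filament of mesenchymal cells, ran from 8.33 to 8.84 with a median of 8.67 on its brighter probe, while its second probe was not above background on any array. Of 18 mesenchymal genes, 10 were present on all 6 arrays, against 45.7% of all genes. Among them were CDH2 (11.34 ± 0.09), which encodes N-cadherin, and the transcription factors SNAI2 (9.78 ± 0.16) and TWIST1 (10.01 ± 0.24). SPARC, a secreted matrix protein, lay at 10.05 ± 0.30. ZEB1 (5.08 ± 0.06), SNAI1, FN1, TWIST2, FOXC2 and MMP2 were above background on no array. The epithelial markers KRT5, KRT18 and CDH1 of the labelled cell type were thus present on all arrays, with VIM and CDH2 beside them.

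Genes of the luminal lineage were present in part. GATA3 and FOXA1 encode transcription factors of luminal cells. GATA3 ran from 7.44 to 7.96 with a median of 7.70, and FOXA1 from 10.07 in experiment 9 to 10.99 in experiment 3 with a median of 10.51. ESR1, the oestrogen receptor, was above background on 3 of the 6 arrays and lay between 5.59 and 6.65, and PGR, the progesterone receptor and its target, on none. MUC1 (13.16 ± 0.16) and CD24 (13.57 ± 0.21), surface proteins of luminal cells, and XBP1 (12.31 ± 0.31) were present on each array. ELF5, which drives milk genes, was above background on no array, nor were the milk protein genes CSN2, CSN3 and LALBA. Of 23 luminal genes with a probe, 11 were above background on all arrays, near the 45.7% of all genes. Of 16 basal and myoepithelial genes 8 were, also near that share. They included CAV1 (13.55 ± 0.09), CD44 (11.91 ± 0.14) and the laminin chain LAMB3 (10.89 ± 0.29). The contractile genes divided: ACTA2 (8.27 ± 0.25), OXTR (7.86 ± 0.22) and MYLK (7.13 ± 0.51) were present on all 6 arrays, and MYH11 and CNN1 on none.

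For adhesion to matrix, 13 of 21 integrin and laminin genes were present on all 6 arrays, against 45.7% of all genes. ITGB1, the common beta chain, lay at 13.29 ± 0.13, and its partners ITGA2 at 9.31 ± 0.32, ITGA3 at 11.58 ± 0.14 and ITGA5 at 9.63 ± 0.21. Among laminins, LAMA5 (12.88 ± 0.19) and LAMC1 (11.09 ± 0.35) were present. ITGB6, ITGB8, ITGA1 and LAMA4 were above background on no array. Of 28 receptor tyrosine kinase genes, 13 were present on all arrays, near the 45.7% of all genes. These included EGFR (10.20 ± 0.16), ERBB2 (10.65 ± 0.13) and ERBB3 (9.79 ± 0.21) of the epidermal growth factor receptor family, MET (9.75 ± 0.22), the receptor of hepatocyte growth factor, and AXL (11.18 ± 0.06). ERBB4, IGF1R and INSR were above background on no array, although insulin was in the medium. Ligands of the family were present, with TGFA at 10.44 ± 0.16 and HBEGF at 9.32 ± 0.33, whereas EGF and HGF were not above background.

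Of 25 cytokine genes with a probe, 13 were above background on at least 1 array, CCL2 on 5 of them. On all arrays 7 were, against 45.7% of all genes: IL6 (9.91 ± 0.34), CXCL8 (7.56 ± 0.24), CXCL2 (7.19 ± 0.47), CCL5 (8.45 ± 0.36), IL32 (9.36 ± 0.17), IL18 (13.48 ± 0.16) and IL11 (7.14 ± 0.51). IL1A, IL1B, TNF and CXCL10 were above it on none. Class I antigen presentation was present, with B2M, the light chain, at 14.06 ± 0.17 and HLA-B at 9.84 ± 0.29, though probes for class I heavy chains may bind several of them. NR3C1, the glucocorticoid receptor, lay at 7.32 ± 0.24, and 16 of 17 genes known as its targets were present on all arrays in this hydrocortisone-containing medium, such as FKBP5 (11.92 ± 0.22), TSC22D3 (9.40 ± 0.11), SGK1 (9.94 ± 0.18) and ZBTB16 (7.81 ± 0.41). PER1 was the exception, and the share over all genes was 45.7%. With no culture without hydrocortisone among the arrays, its part in these levels was not tested. MT2A, a metallothionein, ran from 15.26 to 15.59.

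Genes of growth and division were present nearly throughout. Of 30 mitotic genes 29 were above background on all arrays, with CCNB1 at 10.90 ± 0.11 and CDK1 at 11.52 ± 0.13, and the remaining gene, MKI67 (6.90 ± 0.47), was above it on 5. Of 29 S phase genes 27 were, with MCM2 at 11.47 ± 0.20 and PCNA at 13.14 ± 0.15. All 15 cell cycle regulators with a probe were present, including the inhibitors CDKN1A (11.61 ± 0.33) and CDKN2A (11.12 ± 0.11). In metabolism, 21 of 25 hypoxia and glycolysis genes and 23 of 25 genes of sterol and fatty acid synthesis were present. All 16 heat shock genes and 22 of 23 genes each of the ribosome and the respiratory chain were also present on all arrays. Of the RNA interference machinery, 11 of 14 genes were, among them DICER1 (9.04 ± 0.44), which cuts small RNA precursors, and AGO2 (9.41 ± 0.18), which slices targets. Of the neighbours of GNG12-AS1, GNG12 lay at 8.20 ± 0.20 and WLS at 9.78 ± 0.18, while DIRAS3 was above background on 1 array.

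Most listed genes of other cell types were not above background on all 6 control arrays, where 45.7% of all genes were. Many were still above it on some of the arrays. These were 7 fibroblast, 2 endothelial, 6 haematopoietic, 2 adipocyte, 4 neural and melanocytic genes, and 2 of liver and other organs. Of 15 fibroblast genes 5 were present on all arrays, THY1 (11.44 ± 0.15), FAP (8.51 ± 0.11), COL5A1, COL6A1 and COL6A2, while PDGFRA and PDGFRB were on none, and COL1A1 and COL1A2 were above background on 2 and 4 arrays. Of 10 endothelial genes only ENG (8.46 ± 0.25) was present on all, and CDH5, KDR and VWF on none. Of 13 haematopoietic genes only CD14 (10.96 ± 0.24) and CD68 (9.40 ± 0.24) were, with PTPRC and CD3E on none. Of 7 adipocyte genes, LPL (7.87 ± 0.15) and PPARG (11.55 ± 0.11) were present and FABP4 and PLIN1 were not. None of 10 neural and melanocytic genes was present on all arrays, and of 9 genes of liver and other organs ALB (7.99 ± 0.27) was, on the first of its probes but not on the second (6.10).

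The spread between experiments was small for most genes. The SD over the 6 control arrays had a median of 0.188 over the 10331 genes, with quartiles of 0.127 and 0.272. It fell with the level, from a median of 0.294 in genes at or below level 7 to 0.107 in genes above level 12. The same median SD came to 0.191, 0.186 and 0.180 over the 6 arrays each of the exon 1, exon 7 and exon 9 siRNAs. Genes of the ribosome (median SD 0.0832), the respiratory chain (0.115) and housekeeping reference genes (0.136) lay under the median of all genes, and the interferon response lay above it (0.435).

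**Figure D2:**
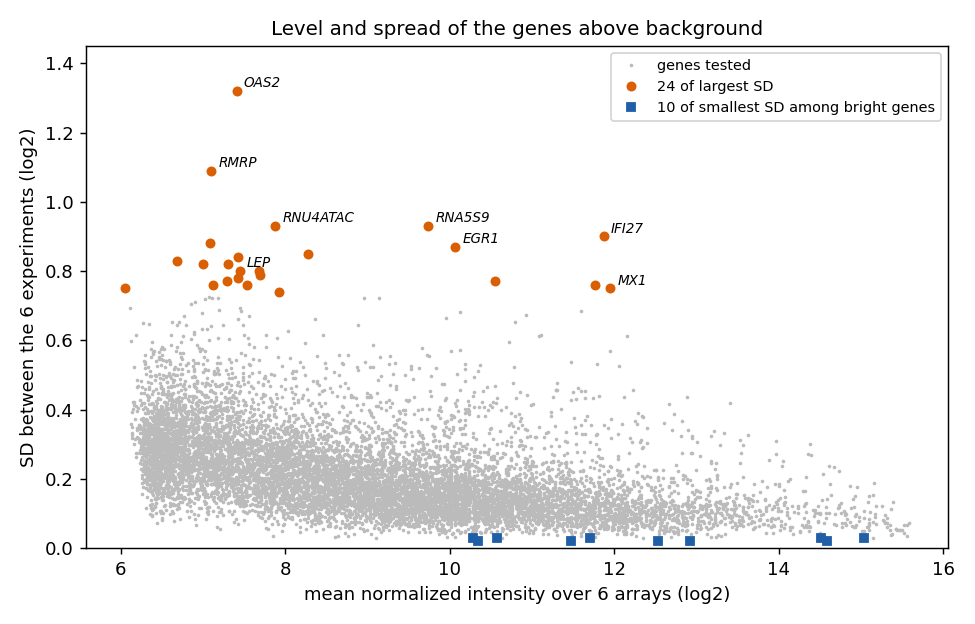
SD between the 6 control arrays (log2) against the mean level (log2) of the 10331 genes tested, 1 grey point per gene. Orange points are the 24 genes of largest SD and blue squares the 10 of smallest SD among genes at least 4 log2 units above the olfactory median. OAS2, RMRP, RNU4ATAC, RNA5S9 and IFI27 have the largest values, from 0.90 to 1.32.

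Of the 24 genes that varied most, 4 were interferon-stimulated genes, 8 were genes of small non-coding RNAs, and the other 11 beside EGR1 fell in neither group. The 24 genes of largest SD, which were chosen by that SD and so are only described on the control arrays, had SDs from 0.743 to 1.32, and the next gene had 0.726. By falling SD they were OAS2, RMRP, RNA5S9, RNU4ATAC, IFI27, KMT2A, EGR1, SCARNA8, SCARNA11, SCARNA20, HUWE1, SNX12, LEP, SCARNA14, OAS1, DNAJC2, RNA28SN5, CCL2, TAF15, LOC100190986, SNORA79, MX1, MFHAS1 and TAF5L. Of these, 14 were above background on all 6 arrays. With no background correction, the SD of OAS2 was 0.85 in place of 1.32, that of RMRP 0.67 in place of 1.09 and that of RNU4ATAC 0.57 in place of 0.93, and IFI27 (0.87) came first. The deposited normalised values gave the same SDs for these genes. In both, 11 of the 24 were again among the 24 of largest SD, namely IFI27, OAS2, RNA5S9, EGR1, TAF15, MX1, RNA28SN5, RMRP, SCARNA8, RNU4ATAC and SCARNA14. With the control array of experiment 9 left out, 13 of the 24 were.

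The 18 arrays of the other siRNAs, normalised apart from the control arrays, gave a test of whether experiments differed in arrays that had not chosen these genes. limma's F test over the 6 experiments, with siRNA as a term and Benjamini-Hochberg adjustment at 0.05, called 1600 of the 10331 genes (15.5%), and 2167 (21.0%) with the column set of an array, explained below, as a further term. With the arrays of the exon 1, exon 7 or exon 9 siRNA left out, it called 381, 144 or 71. Of the 24 genes, 19 were called. The experiment with the highest control array also had the highest mean of the 3 other siRNA arrays for 15 of the 24, against 34.9% of all genes, and the lowest experiment was shared for 16, against 33.6%. Of the 300 genes of largest SD, 135 were called. The share called was 24.8% among the other genes above the upper quartile of SD and 7.84% among those under the median. Without experiment 3 the test called 525 genes, and without experiment 9 it called 962, of which 15 and 14 of the 24 genes. These lower counts also come from fits with 3 fewer arrays, and leaving out any of the remaining experiments left between 1239 and 1410.

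**Figure D3:**
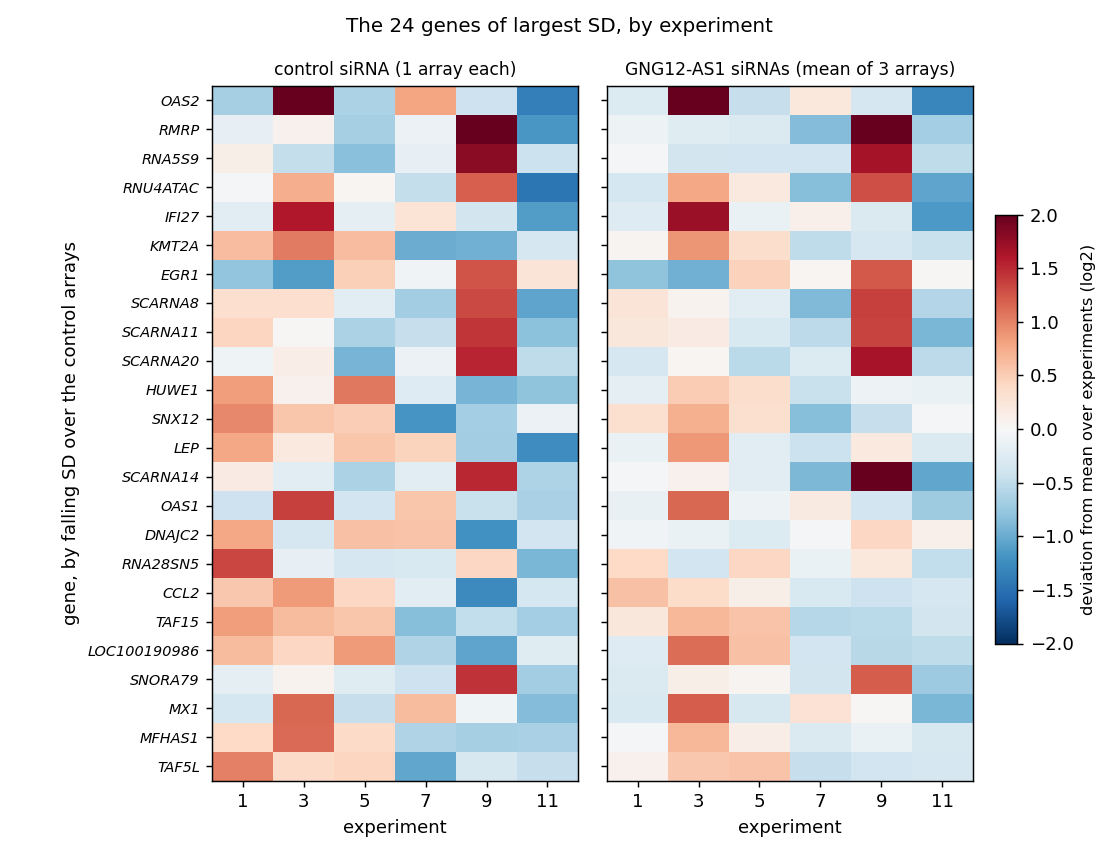
Deviation of the 24 genes of largest SD from their mean over experiments (log2), in the control siRNA arrays (left, 1 array per experiment) and in the arrays of the 3 GNG12-AS1 siRNAs (right, mean of 3 arrays per experiment). Colours end at 2 log2 units either way. OAS2, IFI27, OAS1 and MX1 are highest in experiment 3 and RMRP, RNA5S9 and the SCARNA genes in experiment 9 in both panels, while DNAJC2 and LEP do not keep their order.

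Interferon-stimulated genes were higher in experiment 3 than in the other 5. OAS2, which makes the 2-5A signal of the antiviral RNase L pathway, lay at 6.74, 9.69, 6.78, 8.20, 6.99 and 6.04 on the control arrays of experiments 1, 3, 5, 7, 9 and 11. Experiment 3 was highest, experiment 7 next and experiment 11 lowest. These are values of the brightest probe of OAS2. Its other probes were above background on 0, 0 and 1 arrays, with SDs of 0.42, 0.18 and 0.45. On the brightest probe the 3 other siRNA arrays of experiment 3 lay between 8.79 and 9.36, while the remaining 15 reached at most 7.45. Experiment 3 exceeded the mean of the others by 2.74 on the control arrays and by 2.60 on the other siRNA arrays, and limma's adjusted p for experiment in the latter was 0.000134. IFI27, a mitochondrial interferon-induced protein, lay at 11.66, 13.47, 11.68, 12.14, 11.50 and 10.76 in the same order. Experiment 3 again stood above and experiment 11 below the rest, by 1.92 for experiment 3 on the control arrays and 2.08 on the others (adjusted p = 1.7e-05, limma). MX1, a GTPase that blocks viral replication, lay at 11.60, 13.10, 11.49, 12.58, 11.87 and 11.08, and IFIT1, which binds viral RNA caps, at 11.08, 12.68, 11.26, 12.24, 11.27 and 11.07. Both had experiment 7 in second place. For IFIT3, a partner of IFIT1, experiment 3 (11.24) stood clear of the others, which lay between 9.45 and 9.96. ISG15, a ubiquitin-like modifier, ran from 11.22 in experiment 11 to 12.88 in experiment 3, and OAS1 from 7.04 to 9.05 with the same lowest and highest experiments. XAF1 lay at 10.46 in experiment 3 and between 8.54 and 9.49 in the others.

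The same held over most of the list. Of 38 interferon response genes with a probe, 31 were above background on all 6 arrays, against 45.7% of all genes, and 35 were tested. Experiment 3 was highest for 30 of these 35 on the control arrays, where it was highest for 20.4% of all genes, and for all 35 on the other siRNA arrays, against 21.2%. For 23 of them, all 3 other siRNA arrays of experiment 3 lay above the remaining 15, which held for 1.62% of all genes. The F test called 32, all but IFI44L, PSMB9 and TAP1. The tested probe of IFI44L had an SD of 0.16, while its other probe, above background on 2 arrays and so not tested, had an SD of 1.21 with experiment 3 highest. It called 34 with column set as a term and 9 without experiment 3, with 5.08% of all genes called in that fit. The mean deviation of the list from its average was 0.79 in experiment 3 and -0.41 in experiment 11 on the control arrays, and 0.75 and -0.40 on the others. The transcription factor IRF9 shared the pattern (11.57 in experiment 3 and 10.38 to 11.23 in the others), whereas IRF1, though called, spanned little (10.48 to 10.82) and was highest in experiment 11 on the control arrays. Probes of a gene did not always vary alike: the brightest probe of IFI6 had an SD of 0.19, and its other probe, at a level of 10.31, an SD of 1.04 with experiment 3 highest. The RNA sensors IFIH1 (8.40 ± 0.36, SD, n = 6) and RIGI (7.51 ± 0.56) were among the 32. Whether arrays of experiment 3 shared a reagent, a culture or a chip is not given in the labels, and the source of the difference was not tested.

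The promoters of 30 of the 35 tested interferon genes were found in RefSeq (build GRCh38.p14), as windows from 250 bases before to 50 bases after the start of the gene. A core of the interferon-stimulated response element, GAAA followed by any 2 bases and GAAA again, was searched on both strands. It was in 18 of the 30 windows, in 2.69% of the windows of the genes tested and in 3.65% of all 27305. Those of OAS1 and XAF1 did not hold it. A match is a match of letters only. The 160 bases before the start of IFIT3 (chr10:89327837-89327996), IFIT1 (chr10:89392463-89392622), ISG15 (chr1:1013337-1013496) and IFI27 (chr14:94110576-94110735), all on the plus strand, are shown because these genes varied with experiment and each holds 2 copies. Capitals mark the copies, which read TTTC, any 2 bases and TTTC where they lie on the other strand, and those of ISG15 overlap.
IFIT3: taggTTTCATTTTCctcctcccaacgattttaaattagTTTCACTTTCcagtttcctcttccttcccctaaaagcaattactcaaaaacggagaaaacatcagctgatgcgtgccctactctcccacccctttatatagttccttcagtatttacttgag
IFIT1: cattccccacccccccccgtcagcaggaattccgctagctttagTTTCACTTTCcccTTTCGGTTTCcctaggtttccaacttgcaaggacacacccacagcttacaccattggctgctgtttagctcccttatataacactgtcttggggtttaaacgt
ISG15: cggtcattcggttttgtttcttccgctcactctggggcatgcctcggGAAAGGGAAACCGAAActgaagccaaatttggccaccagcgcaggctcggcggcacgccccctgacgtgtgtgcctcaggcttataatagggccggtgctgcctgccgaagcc
IFI27: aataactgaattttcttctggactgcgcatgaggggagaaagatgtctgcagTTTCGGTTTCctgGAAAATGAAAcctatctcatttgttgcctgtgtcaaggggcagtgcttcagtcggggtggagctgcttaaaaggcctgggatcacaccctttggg

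A second group of genes was highest in experiment 9. EGR1, an immediate early transcription factor that responds to growth factors and stress, lay at 9.28, 8.96, 10.55, 10.00, 11.33 and 10.33 in experiments 1, 3, 5, 7, 9 and 11. Experiment 9 was highest and experiment 3 lowest. Its 3 other siRNA arrays in experiment 9 lay between 11.29 and 11.62 and the remaining 15 reached at most 10.94 (adjusted p = 1.7e-05, limma). FOS, a subunit of the AP-1 factor, lay at 8.05 in experiment 9 and between 6.43 and 7.12 in the others, and JUNB, another subunit, at 8.53 against 6.68 to 7.18. Neither control range overlapped experiment 9. Of 18 immediate early genes tested, experiment 9 was highest for 13 on the control arrays, against 20.2% of all genes, and for 13 on the others, against 17.2%. The F test called 11 of the 18, and 7 without experiment 9, when 9.31% of all genes were called. For EGR1, FOS and ATF3 all 3 other siRNA arrays of experiment 9 lay above the remaining 15, as they did for 1.13% of all genes. MYC differed from the list: it was called (adjusted p = 0.0289, limma) but was highest in experiment 1 (12.50) and lowest in experiment 3.
The 160 bases before the start of EGR1 (chr5:138465319-138465478, plus strand, RefSeq GRCh38.p14) are shown because EGR1 was among the 24 genes. They hold 2 CArG boxes, the site of serum response factor, marked by capitals. A CArG box was in 2 of 15 windows of tested immediate early genes, those of EGR1 and SRF, and in 1.05% of the windows of the genes tested.
EGR1: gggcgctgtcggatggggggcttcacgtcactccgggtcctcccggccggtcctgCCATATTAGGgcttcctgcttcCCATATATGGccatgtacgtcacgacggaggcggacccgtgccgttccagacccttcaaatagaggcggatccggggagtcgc

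Some growth factor and stress genes were also highest in experiment 9. CCN1 and CCN2, secreted matricellular proteins, lay at 12.35 and 11.20 in experiment 9, and at 11.08 to 11.59 and 9.59 to 10.22 in the other experiments. HBEGF ran from 8.91 to 9.76, with experiments 9 and 3 (9.68) highest. Of 17 tested genes of the unfolded protein and ATF4 response, experiment 9 was highest for 13 on the control arrays (20.2% of all genes) and for 11 on the others (17.2%). The F test called 10 of the 17, against 15.5% of all genes, and 6 without experiment 9, against 9.31%. ASNS, which makes asparagine, lay at 12.64 in experiment 9 and between 11.40 and 11.96 in the others (adjusted p = 0.000219, limma). STC2 (10.98 against 9.91 to 10.28) and XBP1 (12.91 against 12.07 to 12.34) also stood apart. DDIT3 was highest in experiment 7 (9.63) on both sets of arrays, and HSPA5 varied little, at 10.42 ± 0.10. CYP1B1, an oxidising enzyme for steroids and xenobiotics, had the largest F of all genes tested (adjusted p = 3.91e-06, limma). It lay at 11.38, 10.75, 10.93, 10.21, 11.99 and 10.31. Experiment 9 was highest and experiment 7 lowest on the control arrays. CEBPD, a transcription factor, had its lowest value in experiment 9 (10.46, with 11.35 in experiment 1 as the highest; adjusted p = 2.86e-05, limma). ELF3, an epithelial transcription factor, was also lowest there (9.42 against 10.24 to 10.57), on the other arrays too (8.89 as a mean, against 10.01 to 10.31; adjusted p = 8e-05).

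Of the 24 genes of largest SD, experiment 9 was highest for 9 on the control arrays, against 20.2% of all genes. Of these 9, 8 were small RNA genes. RMRP, the RNA of the RNase MRP particle, lay at 6.93, 7.19, 6.43, 6.99, 9.13 and 5.94. Experiment 9 exceeded the mean of the others by 2.43, and by 2.64 on the other siRNA arrays (adjusted p = 2.86e-05, limma). RNA5S9, a gene of 5S ribosomal RNA, lay at 11.54 in experiment 9 and between 8.91 and 9.85 in the others. RNU4ATAC, a minor spliceosomal RNA, ran from 6.43 in experiment 11 to 9.07 in experiment 9. The Cajal body RNAs SCARNA8, SCARNA11, SCARNA14 and SCARNA20 and the nucleolar RNA SNORA79 were all highest in experiment 9 on the control arrays and on the others. Of the listed small RNA genes 13 were tested. Experiment 9 was highest for 8 of them on the control arrays, against 20.2% of all genes, and for 8 on the others, against 17.2%. The F test called 6 of the 13, against 15.5% of all genes, and 2 without experiment 9, against 9.31%. RN7SL1, the signal recognition particle RNA, was steadier, at 14.62 ± 0.19. These RNAs are short or made without a poly(A) tail, many have near-identical copies, and the labelling kit that the labels name amplifies RNA from its poly(A) tail. The values give the signal of their probes, and how the amount, the tail and the carry-over of such RNAs bear on it cannot be told apart. RNA28SN5, for 28S ribosomal RNA, did not share the order: it was highest in experiment 1 (11.88, others 9.64 to 10.96).

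**Figure D4:**
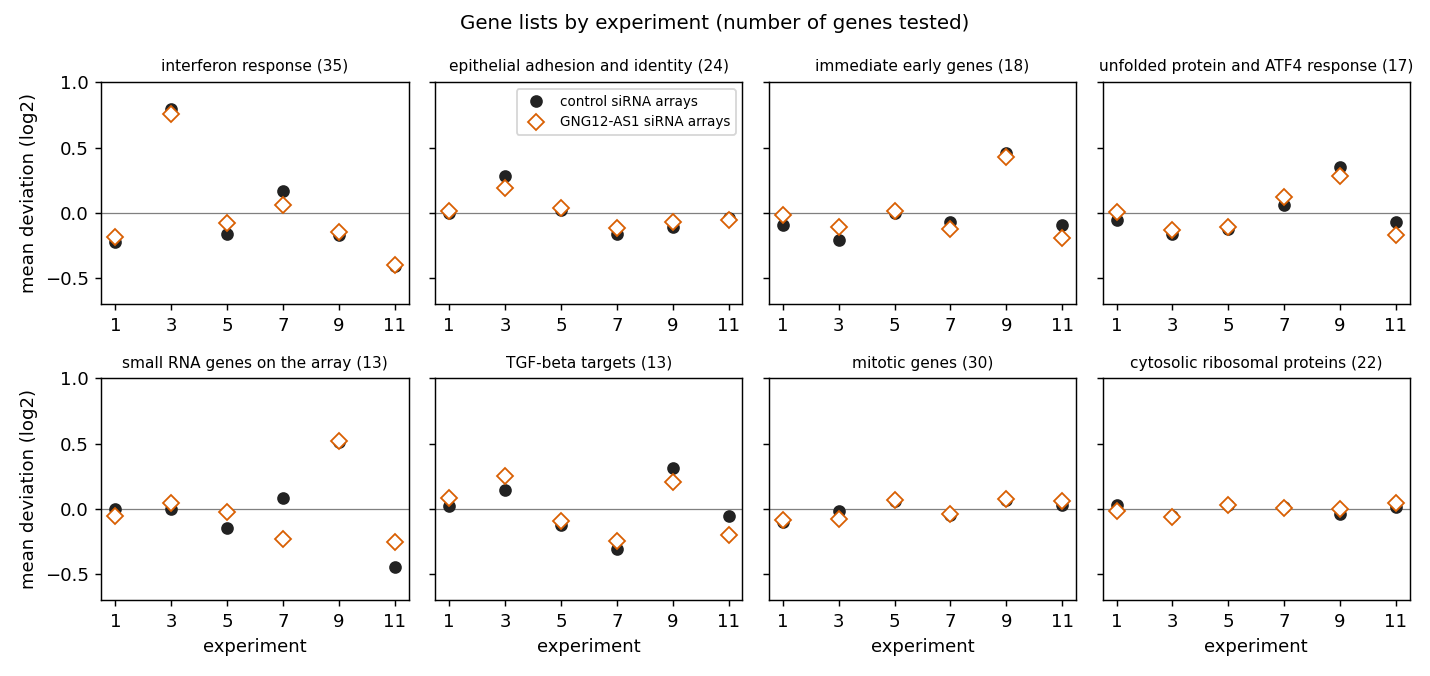
Mean deviation (log2) of the tested genes of 8 lists from their own mean over experiments, for the control siRNA arrays (filled circles) and the arrays of the 3 GNG12-AS1 siRNAs with the mean of each siRNA taken out (open diamonds). The number of genes is given in each title. Interferon genes stand at 0.79 and 0.75 in experiment 3, immediate early genes at 0.46 and 0.43 in experiment 9, and ribosomal and mitotic genes stay near 0.

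Epithelial adhesion and identity genes leaned towards experiment 3. It was highest for 17 of 24 on the control arrays, against 20.4% of all genes, and for 16 on the others, against 21.2%. The mean deviation was 0.29 and 0.19. The F test called 6, CDH1, CLDN1, MARVELD2, DSC2, ELF3 and SPINT1, against 15.5% of all genes. It called 2 without experiment 3 (5.08% of all genes) and 3 without experiment 7 (12.5%) or 9 (9.31%). Not all 6 bear on experiment 3. On the other arrays MARVELD2 was highest in experiment 1 (mean 6.97, with 6.75 in experiment 3). ELF3 was highest in experiment 3 but lay farthest from the rest in experiment 9, where it was lowest. CDH1 lay at 12.33, 12.67, 12.33, 11.75, 12.10 and 12.14 in experiments 1, 3, 5, 7, 9 and 11, and its adjusted p of 0.0378 (limma) was close to the threshold. Of the other markers of identity, KRT5 (adjusted p = 0.0694), KRT18 (0.0628) and VIM (0.182) did not pass. With column set as a term KRT5 passed (adjusted p = 0.0454, limma). Of 13 TGF-beta target genes 11 were called, against 15.5% of all genes. Without experiment 9 there were 6, against 9.31%, and without experiment 3 there were 5, against 5.08%. SMAD7, an inhibitor of that pathway, lay at 8.22 in experiment 9 and between 6.83 and 7.36 in the others. Of 16 glucocorticoid targets 9 were called, against 15.5% of all genes. Experiment 9 was highest for 7 of the 16 on the control arrays, against 20.2% of all genes. On the others it was highest for 6, against 17.2%. The mean deviation of the list in experiment 9 was -0.00651 and 0.0224. ZBTB16 was highest in experiment 5 (8.25) and lowest in experiment 9 (7.06). Of 30 mitotic genes 4 were called, and 3 of 28 S phase genes, both near the 15.5% of all genes. With column set as a term 10 mitotic genes were called, against 21.0% of all genes. None of 22 ribosomal, 23 respiratory chain and 12 housekeeping genes was called. With column set as a term, 1 housekeeping gene was. KRT80 (12.37 to 13.29) was the only called member of 5 simple keratins.

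Several of the 24 genes divided the experiments in another way. KMT2A, a histone methyltransferase, lay at 7.71, 8.13, 7.71, 6.09, 6.13 and 6.76 in experiments 1, 3, 5, 7, 9 and 11, SNX12, a sorting nexin, at 7.96, 7.55, 7.49, 5.82, 6.32 and 6.89, and TAF15, an RNA-binding protein, at 12.61, 12.41, 12.33, 10.92, 11.27 and 11.09. In all 3, experiments 1, 3 and 5 were the higher ones. KMT2A and SNX12 were each above background on only 4 of the 6 arrays, and their lowest values lay near it. On the other siRNA arrays the means of TAF15 were 11.95, 12.39, 12.29, 11.15, 11.18 and 11.35 (adjusted p = 0.00133, limma), in which experiments 1, 3 and 5 were again the higher ones. Its second probe had an SD of 0.90. TAF5L kept that order on its brightest probe (SD 0.74) but spread less on its other probe, at 0.27. The first principal component of the control arrays, with 32.6% of the variance, placed experiments 1, 3 and 5 at -12.1, -13.7 and -12.0 and experiments 7, 9 and 11 at 12.3, 16.4 and 9.0. When the other siRNA arrays were projected on it, the means were -0.975, -11.9 and -4.94 for the first 3 experiments and 6.92, 7.46 and 3.41 for the rest. In the titles these are the 3 lowest and the 3 highest experiment numbers, and the labels do not say what the numbers follow. No test was made of this division, which was read from the data.

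Genes with 1 array far from the rest did not all recur. For each experiment, the genes with its array farthest from the rest were taken from the 300 of largest SD. Most of these were not called for experiment on the other siRNA arrays. JUNB in experiment 9, IFIT3 in experiment 3 and the small RNAs SCARNA13 and SCARNA23 in experiment 9 had the same experiment highest on the other siRNA arrays. FZD7, a Wnt receptor, lay at 7.84 in experiment 7 and between 6.46 and 6.77 in the others, but its means on the other siRNA arrays ran only from 6.91 to 7.11 and experiment 7 was at 6.95. SIRT6, a deacetylase, lay at 5.33 in experiment 9 and between 6.56 and 6.81 in the others, whereas experiment 9 was the highest on the other siRNA arrays (6.63). CCL2, a chemokine, ran from 6.02 in experiment 9 to 8.14 in experiment 3 and did not pass the F test (adjusted p = 0.0566, limma). LEP (6.20 to 8.22) and DNAJC2 (6.22 to 8.21) were not called either, at 0.282 and 0.949 (adjusted p, limma). The second probe of LEP, above background on 1 array, had an SD of 0.22.

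Arrays also differed by column set, a split made here of the array columns of the deposited table. The first set is the first 12 array columns and the last set the last 12. The split was chosen because an earlier account of these data found the arrays to separate by it. The counts below therefore describe a division already seen in these data and are not independent support for it. The first set held the control arrays of experiments 3, 9 and 11 and the last those of experiments 1, 5 and 7, and each group of the study had 3 arrays in either. Whether the sets are chips, runs or an order of listing is not given in the sources used here. On the control arrays limma called no gene after adjustment (0%), and 932 (9.02%) at an unadjusted p under 0.05. For 1522 genes (14.7%) the 3 arrays of the first set did not overlap those of the last. On the 18 other arrays, with siRNA as a term, 419 genes (4.06%) were called, and 803 (7.77%) with experiment as a further term. PPIB, a cyclophilin of the endoplasmic reticulum, lay at 8.78, 7.79, 8.71, 8.85, 7.63 and 7.70 in experiments 1, 3, 5, 7, 9 and 11. The 3 arrays of the last set were 1.07 ± 0.11 (SE) higher (adjusted p = 0.106, limma), and the difference was 1.11 ± 0.12 on the other arrays (adjusted p = 2.44e-05). PTMA, prothymosin alpha, differed by 1.16 ± 0.13 and by 1.26 ± 0.09 (adjusted p = 2.43e-07), and FAM162A by 1.03 ± 0.14 and 0.94 ± 0.09. All 8 genes of smallest p with higher values in the last set on the control arrays were called on the other arrays, and none of the 8 with lower values was. Of the 24 genes of largest SD, 2, LEP and DNAJC2, were called for column set on the other arrays (adjusted p = 0.046 and 0.000725, limma). The pooled SD within sets had a median of 0.1778.

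A small set of genes hardly moved. Among 4020 genes at least 4 log2 units above the olfactory median, the 10 of smallest SD were PPAT, RPAIN, BASP1, EEF1B2, NDUFV2, SLIRP, TMEM41B, RPL24, CTTN and GORASP2, with SDs of 0.02 or 0.03. PPAT, which starts purine synthesis, lay between 10.33 and 10.38, and EEF1B2, a translation elongation factor, between 14.57 and 14.62. None of the 10 was called for experiment on the other arrays, where their means still ranged further, for PPAT from 10.09 to 10.35. They were chosen by their small SD on the control arrays. The usual reference genes ACTB (15.22 to 15.51) and GAPDH (14.90 to 15.13) ranged more widely than these, at levels near the top of the scale, where the arrays can compress differences.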

How the data were processed

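The deposited table used here holds, per its values, the log2 intensity of each Illumina bead array probe in 24 arrays, not normalised between arrays. No source used here gives the authors' background treatment or software. A second deposited table of normalised log2 values served as an alternative. Per the labels, biotinylated cRNA was made with the MessageAmp kit.

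Probes were named through the platform annotation. Probes with 1 gene symbol numbered 30113, and genes of XIST and chromosome Y were left out. The 6 control arrays, and apart from them the 18 arrays of the other siRNAs, were background corrected with limma's nec (437 olfactory receptor probes as negative controls, offset 16), quantile normalised and put on the log2 scale (limma 3.58.1, R 4.3.3). Genes needed a detection p under 0.05 on at least 3 control arrays.

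Experiment and column set were tested with limma (lmFit and eBayes) at a Benjamini-Hochberg adjusted p of 0.05. Each test was checked on simulated data. A change of 1 log2 unit in 50 genes was recovered in 90% for experiment, in 62% for column set in the control arrays and in 98% in the others. For a change of 0.5 these were 36%, 22% and 78%. The simulated arrays for column set in the others held no differences between experiments, which the real arrays have, so 98% and 78% may be too high. The p-value for experiment sets differences between experiments against the residual between the siRNA arrays of an experiment. For column set the residual also holds differences between experiments, unless experiment is a term. P-values hold for these samples only, since nothing beyond the word replicate says how far cultures were separate. The number of arrays limits the precision.

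The markers came with the choice of arrays, and the gene lists and tests were chosen with earlier results of these data known. Genes named were the 4 markers, the first members of each list, members of small counts, the 24 of largest SD, the 8 of smallest p each way for column set, and those with 1 array farthest from the rest. Other listed genes were named after their values were seen.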

Additional observations from a re-analysis of the deposited data

Results flagged for a closer look

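Among the 159 genes tested and named above, 17 had 1 control array whose gap to its neighbour took a larger part of the range of the 6 arrays than Dixon's 95% critical value. The gap over the range is given for each. Chance flags about 1 gene in 20, and several of these genes were named because 1 array lay far from the rest. Experiment 9 stood apart for ELF3 (0.712), JUNB (0.732), RNA5S9 (0.641), SCARNA13 (0.72), SCARNA23 (0.745), SIRT6 (0.829), SNORA79 (0.64), STC2 (0.652) and XBP1 (0.679). It was the highest of the 6 except for ELF3 and SIRT6, for which it was the lowest. Experiment 3 stood apart for IFIT3 (0.715), HLA-B (0.688) and SPINT1 (0.748). Experiment 7 stood apart for CXCL8 (0.631), FZD7 (0.78), GNG12 (0.641) and ITGB1 (0.653), and experiment 11 for KRT16 (0.628).

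The comparisons leave out probes without 1 gene symbol. Of 17120 such probes, 2570 were above background on all 6 control arrays. Of the 4021 above it on at least 3, 84 (2.09%) were called for experiment on the other siRNA arrays, against 15.5% of the genes tested.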

How the results depend on the processing

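Counts of genes above background and the median SD stayed within 1.5 times their value under each alternative run: 8016 genes at a detection p under 0.01 to 9828 with dim unnamed probes as background, and a median SD from 0.1339 without background correction to 0.2094 with median scaling. The count for experiment ran from 1071 without a filter to 2167 with column set as a term. Leaving out each experiment gave 525 to 1410 genes. Without the arrays of the exon 1, exon 7 or exon 9 siRNA it was 381, 144 or 71, in fits with 6 fewer arrays. The column set count of 419 became 184 to 327 without an experiment, 127, 174 or 246 without the arrays of the exon 1, exon 7 or exon 9 siRNA, and 803 with experiment as a term. On the control arrays it was 4 in place of 0 without background correction and in the deposited normalised values, and 0 in each fit without a control array. Experiments were spread over both column sets, so the planned fit of differences within sets was not run, and column set was added as a term after seeing the data. Without experiment 3 and without experiment 9 are replicates 2 and 4 in the labels. No paired analysis was possible for experiment, because no siRNA groups are compared and the replicate number is itself the tested term. For column set on the other siRNA arrays, experiment as a term served as the block and gave 803 genes in place of 419. Every control array came from a different experiment, so that term could not be fitted on the control arrays. Genes near background have the least certain spread.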
